A study of Mus musculus with 27 samples.

Results

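The genes described here encode proteins that a neutrophil makes late in its maturation, and they were chosen by name with earlier results of these data known. S100a8, Ngp, Mmp9 and Itgam were taken first, and S100a9, Camp, Ltf, Lcn2 and Mmp8 were added where the expression table held them. All 9 were among the 5486 genes of the table, and each was read in 27 libraries of sorted mouse bone marrow (BM) cells. The leukemia was made by transducing granulocyte-macrophage progenitors (GMPs) of mT/mG reporter mice with a retrovirus carrying the MLL-AF9 fusion oncogene and GFP, so that its cells carry both GFP and mTomato. Primary acute myeloid leukemia (AML) cells of 3 donors, called batches 1, 3 and 19, were passed into recipient mice, and cells of batch 19 had been taken from spleen while those of batches 1 and 3 came from BM. At full infiltration, living GFP+mTomato+ cells were sorted from the crushed metaphysis (endosteal AML cells) and from the flushed diaphysis (central AML cells) of the long bones, with 3 libraries per region and batch. The controls were 9 libraries of GMPs sorted from the whole BM of wild-type mice matched for age and sex, in 3 control sets (A, B and C) by the mice their labels name. The GMPs carry neither the oncogene nor the reporters and were not transplanted. Each batch stands for 1 donor, MLL-AF9 is expressed from the retrovirus and not from its own promoter, and the labels give no age in figures for any group. The region and the way it was released from bone cannot be told apart, nor can batch 19 and its splenic origin.

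Neutrophils fill their granules in order. Primary (azurophil) granules, with myeloperoxidase and elastase, are made first in promyelocytes, secondary (specific) granules with lactoferrin, cathelicidin and lipocalin follow in myelocytes, and gelatinase granules come last. The transcription factor C/EBPε is required for the secondary granule genes in mice, and C/EBP factors and PU.1 act on many genes of this lineage. S100a8 and S100a9 encode the subunits of calprotectin, a calcium-binding complex that fills the cytosol of neutrophils and is also made by monocytes, and Itgam encodes CD11b, the α chain of the integrin Mac-1. GMPs lie before the steps of the secondary and gelatinase granules.

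The promoters of 4 members are shown because S100a8 and S100a9 are neighbors that differed in level, because Camp and S100a9 had the highest correlation of any pair of members over all AML libraries, and because Ngp held the most matches to the C/EBP-type motif among the members. S100a8 lies on chromosome 3 at 90668978 to 90670035 on the plus strand and S100a9 at 90692632 to 90695721 on the minus strand of mm10 (Gencode M21), with 22.6 kb between them. Camp (chromosome 9, 109847379 to 109849617, minus strand), Ngp (110419747 to 110423012, plus strand) and Ltf (111019271 to 111042767, plus strand) lie on one chromosome, with gaps of 570.1 kb and 596.3 kb. The sequences run 5′ to 3′ toward the gene and are those of RefSeq (GRCm38.p6), which matched 8 of the 9 members. Their positions are chr3:90668821-90669120 (plus strand) for S100a8, chr3:90695672-90695971 (minus strand) for S100a9, chr9:110419558-110419857 (plus strand) for Ngp and chr9:109849407-109849706 (minus strand) for Camp. Capitals mark letters that match TTGCNNAA, a C/EBP-type motif, on either strand.
S100a8: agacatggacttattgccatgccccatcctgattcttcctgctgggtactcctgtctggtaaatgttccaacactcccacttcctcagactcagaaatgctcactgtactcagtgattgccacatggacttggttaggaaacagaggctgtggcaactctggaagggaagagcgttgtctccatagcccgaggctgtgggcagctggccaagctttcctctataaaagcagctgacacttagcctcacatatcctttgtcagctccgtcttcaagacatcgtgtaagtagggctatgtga
S100a9: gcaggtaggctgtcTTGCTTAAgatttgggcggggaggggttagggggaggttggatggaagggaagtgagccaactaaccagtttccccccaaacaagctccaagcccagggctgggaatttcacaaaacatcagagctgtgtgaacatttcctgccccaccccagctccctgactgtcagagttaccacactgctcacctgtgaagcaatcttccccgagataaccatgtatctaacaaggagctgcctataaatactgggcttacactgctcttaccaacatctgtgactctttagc
Ngp: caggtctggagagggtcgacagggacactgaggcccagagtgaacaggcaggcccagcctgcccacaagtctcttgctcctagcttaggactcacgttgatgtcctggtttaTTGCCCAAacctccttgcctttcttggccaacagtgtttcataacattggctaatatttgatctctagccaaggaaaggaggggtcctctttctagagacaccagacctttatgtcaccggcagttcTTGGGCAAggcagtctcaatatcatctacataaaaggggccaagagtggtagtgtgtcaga
Camp: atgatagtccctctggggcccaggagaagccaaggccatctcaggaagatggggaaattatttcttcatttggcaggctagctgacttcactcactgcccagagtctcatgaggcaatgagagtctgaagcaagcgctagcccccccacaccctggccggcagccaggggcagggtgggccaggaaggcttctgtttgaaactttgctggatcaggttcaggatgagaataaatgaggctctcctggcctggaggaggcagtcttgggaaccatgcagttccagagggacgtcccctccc
Ngp held 2 such matches and S100a9 held 1, while S100a8 and Camp held none in this window. Lcn2, Mmp8 and Ltf, whose promoters are not printed, held 1 each, so 5 of the 8 promoters had a match. Of 32851 mouse promoters of the same length, 10.8% had one. A PU.1-type motif, GAGGAA on either strand, was in 5 of the 8 (S100a8, Ltf, Lcn2, Mmp8 and Itgam) and in 28.3% of all promoters. Matches of the 2 motifs did not overlap in these promoters. Both motifs were chosen after the sequences were seen, and a match of letters is a description and not a binding site.

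The assay reads the 3′ end of polyadenylated RNA, and values are read counts scaled to the size of the library (CPM), without a correction for transcript length. Library size could be read for 24 libraries and was 5.595 to 13.4 M reads, with medians of 9.25 M in endosteal AML, 8.92 M in central AML and 8.63 M in GMP libraries. One endosteal library of batch 1 stood apart and is called library 18, by its number in the table. It held 0.075 CPM of Csf3r, the receptor of the neutrophil growth factor G-CSF, against 0.37 to 3.78 CPM in the other 17 AML libraries, and 263 CPM of Cebpe, which encodes C/EBPε, against 11.9 to 62.2 CPM. An endosteal library of batch 3, library 3, held 64441 CPM of the RNA Gm42418, the highest of all libraries. Results that turn on library 18 are given with and without it.

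Markers of the cell types that a myeloid sort could hold were read beside the members. In AML libraries the 5 measured of 10 monocyte and macrophage markers summed to 107 to 408 CPM, against 54.8 to 151 CPM in GMPs. By the test used below 4 of these 5 (Adgre1 and Cd68 among them) were higher, as were 18.2% of all genes. Ly6g, the defining surface marker of mature mouse neutrophils, was at 0.101 to 1.502 CPM in AML and 0 to 0.704 CPM in GMP libraries, and Retnlg, another gene of mature neutrophils, was at 0.117 to 6.13 CPM in AML and 0 to 1.97 CPM in GMPs. The name of late maturation genes therefore rests on granule and cytosolic proteins, with Ly6g at 1.502 CPM or less in every library. GMP markers (6 measured of 7, Mpo and Elane among them) summed to 1229 to 6049 CPM in AML and 11543 to 26486 CPM in GMPs. Markers of eosinophils, basophils and mast cells (6 of 6) summed to 10.8 to 234 CPM in AML and 129 to 626 CPM in GMPs, and those of erythroid cells (3 of 7) to 0 to 1.73 CPM against 6.45 to 22.9 CPM. Megakaryocyte markers (3 of 4) summed to 2.72 to 117 CPM against 26.1 to 131 CPM. Library 18 was the highest AML library for these and for the monocyte markers, and without it the highest sums were 21.5 CPM and 254 CPM. Stromal and endothelial markers (3 of 6) summed to 0.093 to 10.7 CPM against 0.584 to 8.55 CPM, the only T cell marker measured (of 5) stood at 0 to 2.31 CPM (0.767 CPM at most without library 18) against 0 to 0.234 CPM, and the only B cell marker measured (of 6) at 5.51 to 22.9 CPM against 9.56 to 15.5 CPM. Some sums hide opposite log2 differences in the test used below. Among stromal markers Cxcl12 (1.93) was called higher in AML and Col1a1 (-1.02) lower. Among megakaryocyte markers Gp1bb (1.60) was called higher and Pf4 (-5.13) and Itga2b (-3.98) lower. The part of these markers in the results was not tested.

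All 9 members were higher in AML cells than in GMPs. On the log2(CPM + 1) scale the differences ran from 1.49 for Ltf to 4.17 for S100a9, with a median of 2.43 over the members and 0.33 over the 5160 genes tested. The test was limma across all these genes, and a gene was called where its Benjamini-Hochberg adjusted p was under 0.05 and it differed by 1 or more on the log2 scale. By this rule 9 of 9 members were called higher, beside 18.2% of all genes tested. The members were chosen with earlier results of these data known, so this count and those of each batch below are only descriptions of them. Every AML library lay above every GMP library for 6 members (S100a8, S100a9, Ngp, Mmp8, Mmp9 and Itgam), and the same held for 8.14% of all genes. Among GMP libraries Mmp9 reached 1 CPM only at 1.07 and 1.39 CPM. It passed the filter of 1 CPM in 3 libraries only through AML libraries, so its call and separation follow in part from that filter. These are bulk libraries, so a larger share of cells with a transcript and more of it per cell cannot be told apart. All fits treated libraries as independent, although the 18 AML libraries come from 3 donors and the 2 regions may share mice. The 9 GMP libraries were treated in the same way, although they fall in 3 control sets. The SE and p-values given here and below therefore describe spread among libraries and not among leukemias or control sets. The table holds only genes with an FDR under 0.05 in the authors' own fit, and the percentages describe such genes.

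**Figure D1:**
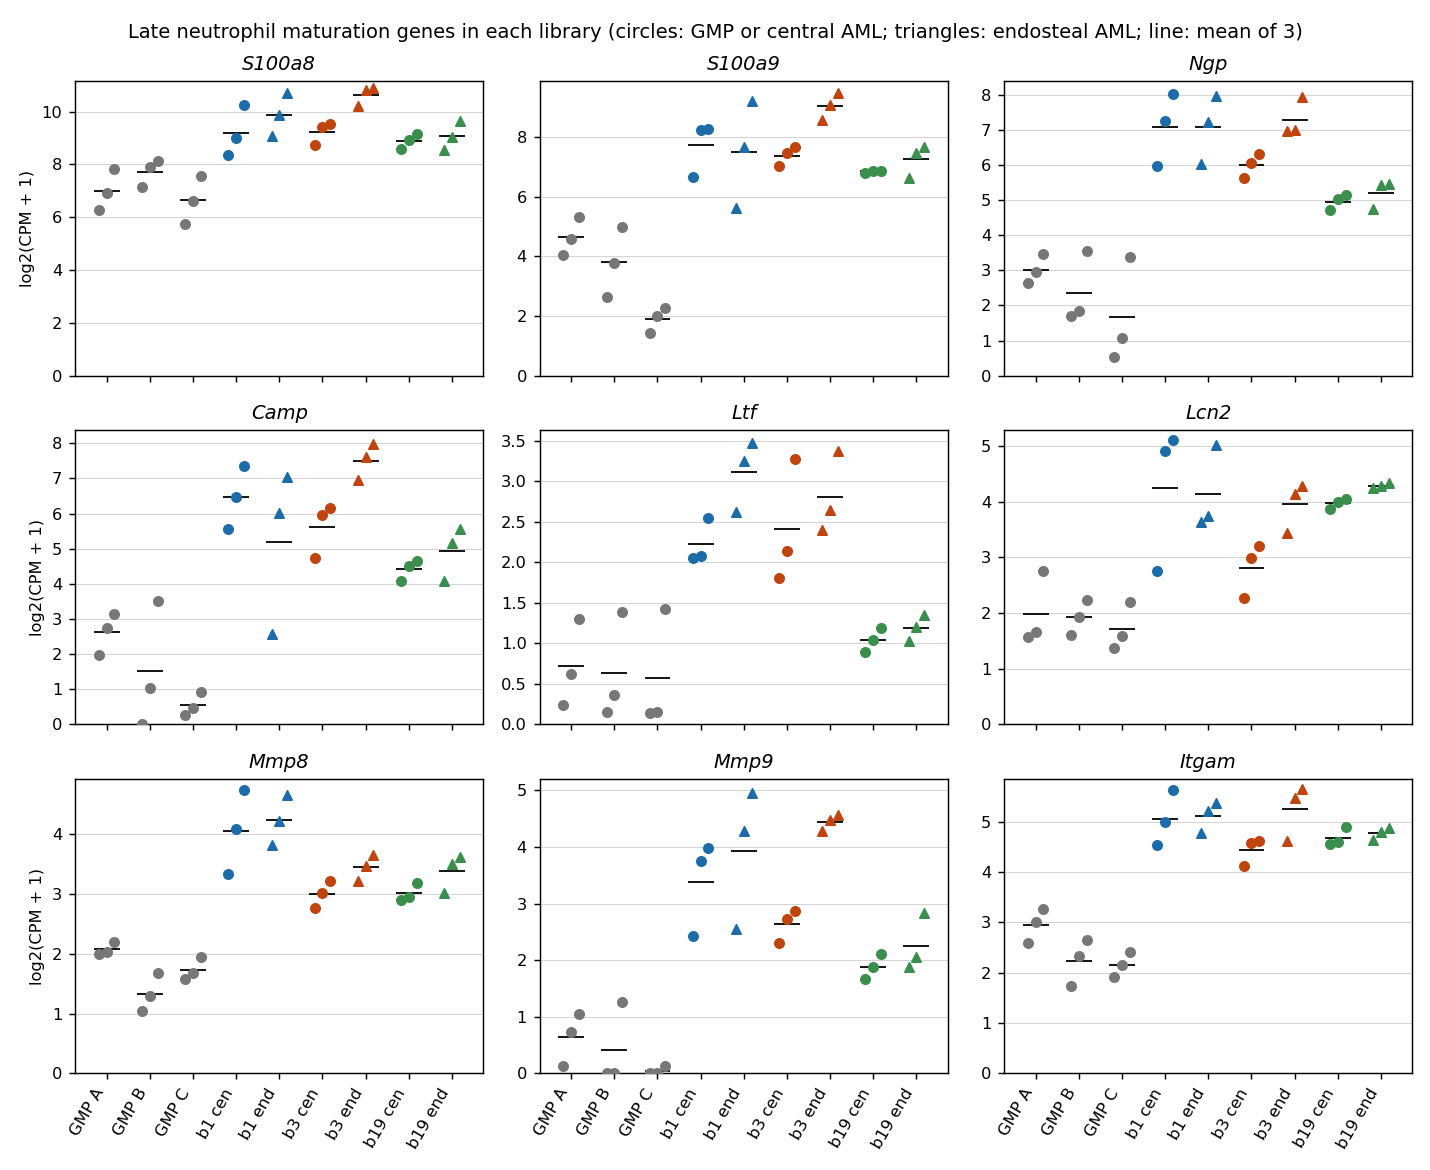
Level of each member in every library, as log2(CPM + 1) on the vertical axis of each panel, by GMP control set (A, B, C) and by AML batch (b1, b3, b19) and region (cen, central; end, endosteal). Points are libraries and lines are means of 3. GMP libraries (gray) have the lowest mean in every panel, Ltf of batch 19 lies within the range of the GMPs, and in batch 3 the endosteal libraries lie above the central ones for 8 of 9 genes.

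S100a8 was the most abundant member in CPM. The GMP libraries held 52.8 to 276 CPM, with a median of 141 CPM. In endosteal AML cells it was at 537, 940.0 and 1658 CPM in batch 1, 1188, 1822 and 1918 CPM in batch 3, and 369, 530.3 and 805 CPM in batch 19. In central AML cells it was at 326, 511 and 1208 CPM in batch 1, 431, 691 and 748 CPM in batch 3, and 385, 487 and 569 CPM in batch 19. The lowest AML library, of batch 1 central cells, was above the highest GMP library, of set B. The log2 fold change was 2.37 ± 0.26 (SE, 18 AML and 9 GMP libraries), 5.16-fold, with an adjusted p by limma of 1.13e-08.

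S100a9, which encodes the partner subunit, differed more. GMP libraries of set A held 15.7, 22.9 and 38.9 CPM, those of set B 5.26, 12.6 and 30.2 CPM, and those of set C 1.69, 3.02 and 3.76 CPM. Endosteal AML libraries held 48.0, 204 and 588 CPM in batch 1, 379, 538 and 709 CPM in batch 3, and 97.7, 174 and 200.5 CPM in batch 19. Central libraries held 99.9, 299.6 and 305 CPM in batch 1, 128, 174 and 200.2 CPM in batch 3, and 111, 115 and 116 CPM in batch 19. The groups did not overlap, although library 18 (48.0 CPM) was close to the highest GMP library. The log2 fold change was 4.17 ± 0.41 (limma adjusted p = 1.23e-09), 18.03-fold.

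The subunits were not in a fixed proportion. In 17 AML libraries S100a8 was 1.71 to 4.89 times S100a9 in CPM, with a mean of 3.42 ± 0.75 (SD), and in library 18 it was 19.6 times. GMP libraries ranged from 4.67 to 112 times, with a median of 14.03. Set A lay close together at 4.83, 5.22 and 5.90 times, while set B was at 4.67, 21.9 and 45.4 times and set C at 14.03, 32.1 and 112 times. S100a9 spanned a wider range than S100a8 among the GMPs, and library 18 lay within the range of sets B and C in this ratio.

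**Figure D2:**
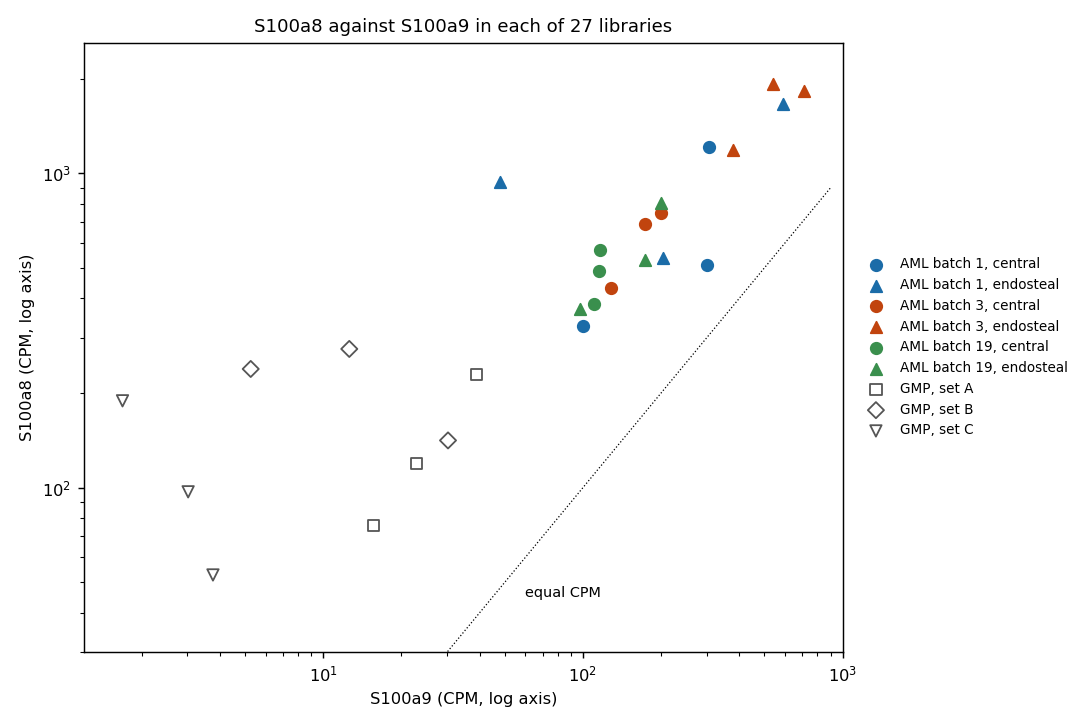
CPM of S100a8 (vertical log axis) against S100a9 (horizontal log axis), 1 point per library, with AML colored by batch and shaped by region and GMPs as open symbols by control set. The dotted line marks equal CPM. AML libraries other than library 18 (48.0 CPM of S100a9 and 940.0 CPM of S100a8) lie along a band of 1.71 to 4.89 times, and GMPs of sets B and C reach far to the left of it.

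Ngp and Camp, which encode neutrophilic granule protein and the antimicrobial cathelicidin CRAMP, are secondary granule genes. Ngp was at 0.456 to 10.7 CPM in GMPs, with a median of 5.22 CPM. In AML it was at 62.5 to 260.1 CPM in batch 1 (median 151 CPM), 48.3 to 244 CPM in batch 3 (median 101 CPM) and 25.4 to 43.2 CPM in batch 19 (median 33.0 CPM). No AML library overlapped with the GMPs, and the log2 fold change was 3.93 ± 0.32 (limma adjusted p = 3.3e-11), 15.2-fold.

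Camp was at 0 to 10.3 CPM in GMPs, with a median of 1.07 CPM, and both of these extremes were libraries of set B. Endosteal AML libraries held 4.92, 63.5 and 130 CPM in batch 1, 122, 193 and 252 CPM in batch 3, and 16.1, 35.2 and 45.8 CPM in batch 19. Central libraries held 46.0, 87.7 and 162 CPM in batch 1, 25.7, 60.9 and 70.7 CPM in batch 3, and 16.1, 21.8 and 24.3 CPM in batch 19. Of the 18 AML libraries 17 lay above all GMPs, and the exception was library 18, whose 4.92 CPM was below 3 GMP libraries. The log2 fold change was 4.13 ± 0.44 (limma adjusted p = 6.24e-09), 17.4-fold.

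Ltf encodes lactoferrin, the iron-binding protein of secondary granules, and it was the least abundant member in AML, with a median of 3.33 CPM. GMP libraries held 0.101 to 1.69 CPM (median 0.291 CPM). Endosteal AML libraries held 5.16, 8.49 and 10.06 CPM in batch 1, 4.28, 5.28 and 9.34 CPM in batch 3, and 1.04, 1.30 and 1.55 CPM in batch 19. Central libraries held 3.16, 3.24 and 4.86 CPM in batch 1, 2.51, 3.42 and 8.69 CPM in batch 3, and 0.865, 1.06 and 1.29 CPM in batch 19. The 12 libraries of batches 1 and 3 were above all GMPs and the 6 of batch 19 were within the GMP range. The log2 fold change of all AML was 1.49 ± 0.19 (limma adjusted p = 1.48e-07), and at a pseudocount of 3 it was 0.87, under the fold required. At these levels 1 CPM stands for about 6 to 13 reads.

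Lcn2 encodes lipocalin 2, which binds bacterial siderophores, and Mmp8 encodes neutrophil collagenase. Lcn2 was at 1.60 to 5.78 CPM in GMPs (median 2.15 CPM) and 3.82 to 33.4 CPM in AML (median 15.3 CPM), where 16 of 18 libraries lay above all GMPs. The others were a central library of batch 3 (3.82 CPM) and a central library of batch 1 (5.72 CPM). Mmp8 was at 1.05 to 3.58 CPM in GMPs and 5.82 to 25.8 CPM in AML, with no overlap. The log2 fold changes were 2.02 ± 0.23 for Lcn2 and 1.81 ± 0.16 for Mmp8, with limma adjusted p-values of 1.41e-08 and 1.2e-10.

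Mmp9, or gelatinase B, names the gelatinase granule. GMP libraries of sets A and B held 0.093, 0.652 and 1.07 CPM and 0, 0 and 1.39 CPM, and in set C 2 libraries were at 0 and the third at 0.101 CPM. AML libraries held 4.35 to 30.01 CPM in batch 1, 3.96 to 22.6 CPM in batch 3 and 2.16 to 6.09 CPM in batch 19, all above the GMPs. The log2 fold change was 2.72 ± 0.23 (limma adjusted p = 8.16e-11), and it ranged from 1.71 to 5.07 over the alternative settings. Itgam was at 2.34 to 8.58 CPM in GMPs and 16.4 to 49.3 CPM in AML, without overlap. Its log2 fold change, 2.43 ± 0.17, had the smallest adjusted p of the members (limma, 1.07e-12). Itgb2, which encodes the CD18 chain that pairs with CD11b, was also higher, at 19.4 to 75.5 CPM in AML and 1.41 to 12.7 CPM in GMPs, with a log2 fold change of 3.14 ± 0.23 (limma adjusted p = 5.37e-12). The study describes its primary blasts as all positive for CD11b. CD11b was also among the lineage antigens it used to remove mature cells before sorting stem cells. The gate of the GMPs is not given, and the part of such a gate in the Itgam difference was not tested.

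Each batch was then set against the GMPs, and the 3 comparisons share the same 9 control libraries. In batch 1 all 9 members were called higher (16.5% of all genes), with a median log2 fold change of 2.64 over the members and 0.18 over all genes. In batch 3 all 9 were called as well (22.2% of all genes), with medians of 2.82 and 0.28. In batch 19 there were 8 of 9 (23.8% of all genes), with medians of 2.25 and 0.29, and the member not called was Ltf. Its log2 fold change in batch 19 was 0.47 ± 0.25 with a 95% interval of -0.04 to 0.98 (limma adjusted p = 0.0775), beside 2.03 in batch 1 and 1.96 in batch 3. In a fit to whole reads with voom, made without GMP libraries 25 and 26, the Ltf difference of batch 19 was 1.48 and passed the test. Library 25 was the highest GMP library for Ltf (1.69 CPM).

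**Figure D3:**
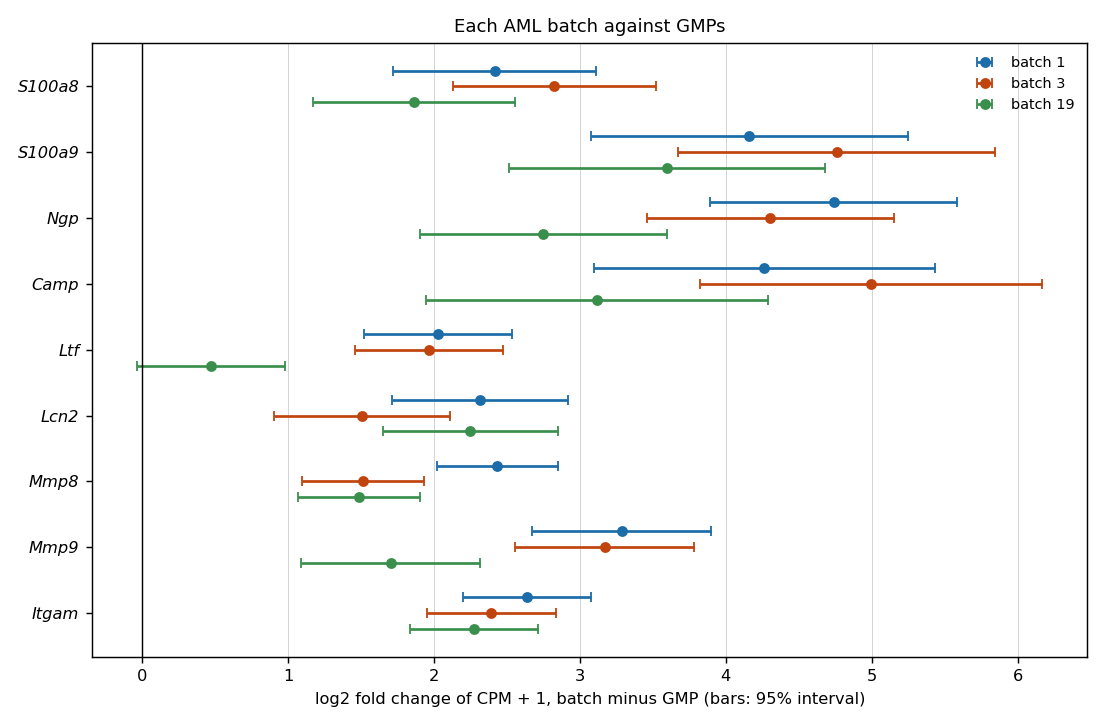
Log2 fold change of each member in batches 1, 3 and 19 against the same 9 GMP libraries (horizontal axis, log2(CPM + 1) scale), with 95% intervals from limma as bars. The Ltf interval of batch 19 (-0.04 to 0.98) reaches below 0 and every other interval lies above 0.

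The batches were not alike. By mean log2 level, batch 19 was lowest for 8 members and batch 3 for 1 (Lcn2), and batch 1 was highest for 6 members and batch 3 for 3 (S100a8, S100a9 and Camp), or for 5 and 4 without library 18. These ranks were not counted over all genes. With region as a block, 3 members were called higher in batch 1 than in batch 19 (11.0% of all genes were): Ngp by 1.99 ± 0.35, Ltf by 1.55 ± 0.24 and Mmp9 by 1.58 ± 0.37 on the log2 scale, with limma adjusted p-values of 0.000135, 3.49e-05 and 0.0015. Mmp8 passed the p threshold there (0.95, limma adjusted p = 0.000934) but not the fold. For Ngp and Ltf all 6 libraries of batch 1 lay above all 6 of batch 19, a separation that 14.5% of all genes had, and so did the 6 of batch 3 (12.4% of all genes).

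Between batches 3 and 19, 4 members were called higher in batch 3 (6.45% of all genes were): Ngp by 1.56 ± 0.35, Camp by 1.88 ± 0.64, Ltf by 1.49 ± 0.24 and Mmp9 by 1.46 ± 0.37. Their limma adjusted p-values were 0.00215, 0.0299, 0.000103 and 0.00465. S100a8 (0.96, adjusted p = 0.0343) missed the fold, and S100a9 (1.16, adjusted p = 0.0685) missed the p threshold of the same limma fit. Of the 4 called, only Ltf (1.37, adjusted p = 0.0135) was left when central libraries alone were compared with limma, beside 274 of 4560 genes called higher. Camp lost its call when library 1, 3 or 5 of batch 3 or library 11, 12 or 13 of batch 19 was left out (limma adjusted p of 0.0506 to 0.0777). Batches 1 and 3 differed in no member by this rule (15.4% of all genes were called in either direction), and Mmp8 came nearest, 0.92 higher in batch 1 (limma adjusted p = 0.00188). At an unadjusted p under 0.05 there were 2 members, Mmp8 and Lcn2, both higher in batch 1 (26.6% of all genes were higher at this threshold), and edgeR and DESeq2 on whole reads each called 1 (beside 1060 and 1149 of 4813 genes). The other 95% intervals between these batches were wide, from -2.07 to 0.61 for Camp and from -0.65 to 0.89 for Mmp9.

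Library 18 bears on batch 1. Without it, 5 members in place of 3 were called between batches 1 and 19, the added ones being S100a9 (1.06) and Camp (1.89), beside 499 of 4779 genes called higher in the same limma fit. By mean log2 level without it, batch 3 and not batch 1 was highest for Ltf (2.61 against 2.51), and Camp, S100a9 and S100a8 stayed highest in batch 3. The mean of Camp in batch 1 was 82.3 ± 57.1 CPM (SD, n = 6) with it and 97.8 ± 47.8 CPM (SD, n = 5) without it.

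The libraries of batch 19 were also the most alike. The highest of its 6 libraries was 1.29 to 2.85 times the lowest for a member, with a median of 1.79 times over the members. In batch 3 the median was 4.82 times (1.99 to 9.78 times), and in batch 1 it was 5.09 times (2.18 to 33.0 times, the last for Camp with library 18). On the log2 scale the SD was smallest in batch 19 for 9 of 9 members, as it was for 65.4% of all 4820 genes tested in AML.

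The study sampled both regions to ask whether AML cells near bone differ from those of the central marrow. For the late neutrophil genes, all 9 differences by the main settings pointed toward endosteal cells. They lay between 0.32 (Itgam) and 0.90 (Mmp9) on the log2 scale. None passed the adjusted p of limma with batch as a block. No gene of the 4820 tested did (0%), with 183 higher and 40 lower at an unadjusted p under 0.05. On whole reads DESeq2 called 1 gene, which was no member, and edgeR and voom called 0. Mmp9 had the smallest unadjusted p of the members (0.90 ± 0.30, limma adjusted p = 0.887). S100a8 (0.76 ± 0.27) and Ltf (0.48 ± 0.20) also had an unadjusted p under 0.05, a threshold that 3.80% of all genes reached in this direction and 0.830% in the other. The median was 0.48 over the members and 0.02 over all genes. The share of all genes that pointed toward endosteal cells was not counted. The common direction of the members also depended on the settings. Over the alternative settings the difference of Camp fell as low as -0.37, toward central cells. Those of the other members stayed positive, the smallest being 0.08 for Itgam.

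The difference was larger in batch 3 than in the other batches for 8 members and smaller than in batch 1 for Ltf (0.40 against 0.88), by values whose difference between batches did not pass a test for any member. In batch 3, all 3 endosteal libraries lay above all 3 central ones for 8 of 9 members, and 12.3% of all genes were separated this way. S100a8 was at 1188, 1822 and 1918 CPM in endosteal and 431, 691 and 748 CPM in central cells. Mmp9 was at 18.3, 21.1 and 22.6 CPM in endosteal and 3.96, 5.63 and 6.30 CPM in central cells. Itgam was at 23.6, 43.01 and 49.3 CPM in endosteal and 16.4, 22.98 and 23.4 CPM in central cells, where the lowest endosteal and the highest central library nearly met. The exception was Ltf, with 4.28 to 9.34 CPM in endosteal and 2.51 to 8.69 CPM in central cells.

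The log2 differences of batch 3 were 1.89 ± 0.79 for Camp, 1.80 ± 0.48 for Mmp9, 1.67 ± 0.62 for S100a9, 1.40 ± 0.46 for S100a8, 1.31 ± 0.47 for Ngp, 1.13 ± 0.49 for Lcn2 and 0.81 ± 0.29 for Itgam. The limma adjusted p-values of the 9 members were 0.31 to 0.843, so none was called, beside 2 of all genes (0.0415%). At an unadjusted p under 0.05 there were 7 members, those just named, beside 5.25% of all genes in this direction. Without library 18, which is of another batch but enters the shared estimate of the spread, Mmp9 was called in batch 3 (limma adjusted p = 0.0291), beside 16 of 4779 genes, and without libraries 3 and 18 together it was not. In the same libraries the monocyte and macrophage markers summed to 179 to 199 CPM in endosteal and 139 to 174 CPM in central cells, and 0 of the 5 measured were called. Markers of eosinophils, basophils and mast cells summed to 42.5 to 68.5 CPM against 19.95 to 33.0 CPM, with 0 of 5 tested called, and megakaryocyte markers to 7.94 to 13.5 CPM against 2.72 to 4.77 CPM. Ly6g was at 0.644 to 0.827 CPM in endosteal and 0.101 to 1.28 CPM in central cells. The part of these markers in the regional difference was not tested.

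**Figure D4:**
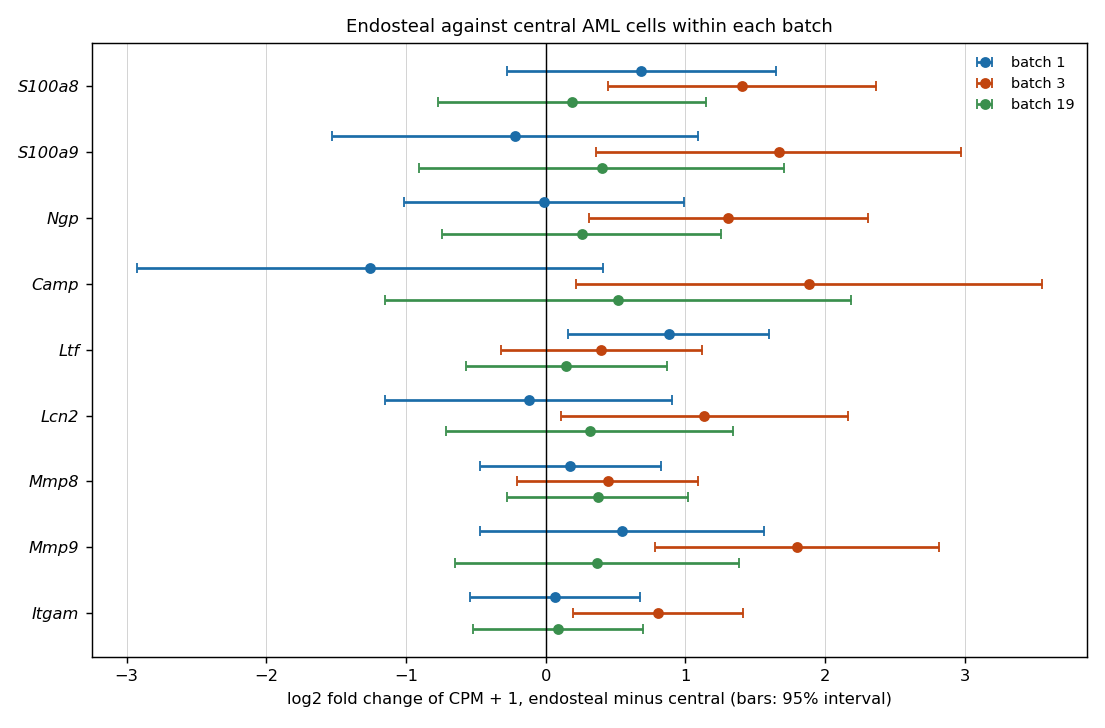
Endosteal minus central log2 fold change of each member within batches 1, 3 and 19 (horizontal axis, log2(CPM + 1) scale), from 3 libraries per region, with 95% limma intervals as bars. In batch 3 the intervals of 7 members lie above 0, in batch 1 that of Ltf does, and in batch 19 all 9 include 0, before any adjustment over genes.

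In batch 1 only Ltf was separated, at 5.16, 8.49 and 10.06 CPM in endosteal and 3.16, 3.24 and 4.86 CPM in central cells (3.65% of all genes were separated this way), and 4 members pointed toward central cells, Camp by -1.26 ± 0.79. Library 18 bears on several of these values. Without it Camp was 0.06, S100a9 went from -0.22 to 0.73, Lcn2 from -0.12 to 0.13 and Mmp9 from 0.55 to 1.24, and the 3 members that pointed toward central cells were Ngp (-0.09), Itgam (-0.06) and Mmp8 (-0.04), with no member called by limma. In batch 19 only Lcn2 was separated, at 17.9, 18.4 and 19.2 CPM against 13.5, 14.9 and 15.6 CPM (5.52% of all genes). All 9 differences of batch 19 were positive but small, between 0.09 and 0.52. The region effect was not shown to differ between batches for any member: the smallest interaction p was that of Camp (limma adjusted p = 0.765), and 0 of 4820 genes passed (0%). Within batches 1 and 19 limma, edgeR and voom called 0 genes by the main settings, with 266 higher and 377 lower in batch 1 and 22 higher and 10 lower in batch 19 at an unadjusted p of limma under 0.05, and DESeq2 called 27 in batch 1, none of them a member, and 0 in batch 19. Without library 20 limma called 151 genes in batch 1, and 6 with no filter on low values, again with no member among them.

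Across the 18 AML libraries the members formed no single block. Pearson's r of their log2 values, given as a description of libraries that share batches, ran from 0.01 (Ltf with Lcn2) to 0.93 (S100a9 with Camp), with a median of 0.52 over 36 pairs. S100a9 and Camp had 0.90 without library 18. S100a8 and S100a9 had 0.75, and 0.93 without it, then the highest of the pairs. Ngp and Camp had 0.62, and 0.90 without it. Lcn2 had 0.38 to S100a8 and 0.16 to Mmp9, and its closest members were Mmp8 (0.56) and S100a9 (0.44).

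The genes whose AML pattern was most like each member were taken by r among the 4820 genes. For Ngp they were Fcnb, a ficolin of neutrophil granules (0.94), Lgals3, which encodes galectin-3 (0.91), and Plek (0.90). Fcnb also led for S100a8 (0.80), followed by Ngp (0.79) and Gm15931 (0.76). For S100a9 they were Camp (0.93), F5 (0.84) and Sema4d (0.83), and for Camp they were S100a9 (0.93), Relb (0.91) and Sema4d (0.89). Lcn2 had Ccl3 (0.84), Tnf (0.83) and Nlrp12 (0.83), of which the first 2 encode an inflammatory chemokine and cytokine. For Ltf they included Rasa4 (0.94) and Evl (0.94), for Mmp8 Ccr1 (0.91), Gm7967 (0.91) and Ccdc85c (0.91), for Mmp9 Ikzf3 (0.93) and Adam19 (0.86), and for Itgam Dennd4a (0.89), Gm25663 (0.88) and Ppt1 (0.86). Within the 6 libraries of batch 19 some did not hold, with r of -0.46 for Lcn2 with Tnf and -0.76 for S100a8 with Gm15931. Fcnb was at 2.51 to 8.82 CPM in GMPs, 2.56 to 19.99 CPM in batch 1, 4.83 to 19.4 CPM in batch 3 and 0 to 0.973 CPM in batch 19. Its log2 fold change against the GMPs was -0.13 ± 0.24 in all AML (limma adjusted p = 0.598), 0.62 in batch 1, 0.92 in batch 3 and -1.94 in batch 19, where Ngp was higher than in the GMPs.

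The members were last set beside other genes of their granules and pathways, by lists that leave the members out and of which a few share a gene. Of all genes tested against the GMPs, 18.2% were called higher in AML and 12.4% lower. Of 13 further genes tested in the secondary granule list, 7 were higher in AML and 1 lower, with a median log2 fold change of 1.43. Chil3, a chitinase-like protein (4.20 ± 0.45), and Cd177, a neutrophil surface protein (4.08 ± 0.20), rose most, Cd63 (1.43 ± 0.26) was the smallest rise, and Wfdc21 fell by 1.06. Cd63 encodes a membrane protein best known from primary granules, so this count and median are not of secondary granule genes alone. Cybb (0.68) and Ly6g (0.46) did not reach the fold. Of 15 gelatinase granule and secretory vesicle genes 9 were higher and 1 lower, with a median of 1.03. Pilra (3.61) and Mcemp1 (2.54) led, C5ar1 (1.011) just passed, Clec5a fell by 1.31, and Csf3r was at -0.47 without passing.

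Of 10 genes tested in the primary granule list, 0 were called higher and 5 lower (12.4% of all genes were lower), with a median log2 fold change of -0.87. The list leaves out Cd63 and holds Calr, which encodes a chaperone, and Serpinb1a, so its counts are not of granule proteins alone. Nkg7 fell by 3.90, Mpo (myeloperoxidase) by 3.20, Cst7 by 1.51 and Calr by 1.10. Mpo was at 8832 to 24674 CPM in GMPs and 203 to 3451 CPM in AML, and it was lowest in batch 1 (203 to 668 CPM). Serpinb1a, which encodes an inhibitor of neutrophil serine proteases, was 0.53 (limma adjusted p = 0.00426), under the fold. Prtn3, which encodes another protease of this granule, was -0.58 ± 0.19, under the fold. Elane, neutrophil elastase, did not reach the fold at -0.56 ± 0.12. It was at 113 to 164 CPM in batch 1 and 456 to 705 CPM in batch 19, beside 384 to 653 CPM in GMPs. Mpo was at 2602 to 3451 CPM in batch 19. By mean log2 level, batch 1 was highest for 6 members (5 without library 18) and batch 19 lowest for 8. A relation of these ranks to the levels of Mpo and Elane was not tested.

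Among 8 transcription factor genes tested, 2 were higher, Id2 (1.69) and Cebpb (1.33), and 2 lower, with Klf4 falling by 1.62 and Irf8, a factor of the monocyte branch, by 1.28. Over all genes 18.2% were higher and 12.4% lower, and the counts of this and the next short lists are given as a description. Cebpe, at 11.3 to 34.7 CPM in GMPs, was 0.60 ± 0.20 without reaching the fold. Of 5 genes of the S100 family and its receptors 2 were higher, S100a6 (2.21) and S100a4 (1.2), while Tlr4, which encodes a receptor of calprotectin, was 0.46. Of 5 metalloproteases and inhibitors 1 was higher, Adam8 (2.01), and 1 lower, with Timp3 falling by 1.70, and Timp2 was 0.20. Of 4 genes around the β2 integrins 2 were higher, Itgb2 and Itgax (1.57), Icam4 fell by 2.10, and Itgal, whose product pairs with CD18 on lymphocytes and myeloid cells, was -0.41 without reaching the fold. Of 5 subunits of the NADPH oxidase 2 were higher, Cyba (1.897) and Ncf4 (1.45).

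The stefins, cysteine protease inhibitors of mouse neutrophils and their precursors, had the largest median of these lists (3.33). Of 8 cystatin and stefin genes tested 7 were higher in AML (18.2% of all genes were), among them Stfa1 (7.02 ± 0.16) and BC100530 (6.56 ± 0.18), Stfa2l1 was the smallest rise (2.12), and Cst7 was lower. These genes lie together and are near-identical in part, so their reads may have been shared among them and single values are uncertain. BC117090 (1.98 ± 0.30, adjusted p = 0.0183) and Stfa1 (1.95 ± 0.34, adjusted p = 0.0478) were also the 2 genes that limma called higher in endosteal than in central cells of batch 3. On whole reads edgeR and voom called 0 genes there and DESeq2 9, and limma called 0 when library 1, 3, 4 or 6 was left out.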

How the data were processed

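RNA of sorted cells was read by QuantSeq 3′ sequencing in 18 AML and 9 GMP libraries. The authors deposited 1 table of CPM values and an FDR (an adjusted p-value), both made before deposition, and every one of its 5486 genes has an FDR under 0.05; the comparison behind that FDR is not named and the FDR was used for nothing else. The submitters' processing notes name cutadapt 1.9, HISAT2, featureCounts, limma and the mm10 build.

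Columns of the table were assigned to groups by the batch, region or control their names give, and libraries are called by their number in the table. The 9 members and all gene lists were chosen with earlier results of these data known. Named genes are every member, the genes with the largest and smallest change among those called in each list, a fixed set of lineage genes, and the 3 genes with the highest r to each member, of which some are not reported here; Gm42418, BC117090, Adgre1, Cd68 and Retnlg were named after their values or as markers. The main fit was limma 3.58.1 (R 4.3.3; trend) on log2(CPM + 1) for genes with at least 1 CPM in 3 libraries, with Benjamini-Hochberg adjustment over all genes and two-sided tests. A call needed an adjusted p under 0.05 and, except between regions, a log2 fold change of at least 1. AML and GMP groups were fitted as 7 means, batches with region as a block and regions with batch as a block. Fold changes on this scale understate the change of genes of low CPM.

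Whole reads were recovered from the CPM steps of 24 libraries (17 AML and 7 GMP), where 99.98 to 100% of values fell within 0.1 of a whole read, and edgeR 4.0.16, DESeq2 1.42.0 and voom were run on them as alternatives. These alternatives leave out library 2 (central, batch 3) and libraries 25 and 26 (GMP, set C), so they change the libraries as well as the tool. The genes of the table hold 22.0 to 28.3% of each library's reads. Scripts were tested on simulated data. The study describes 3 biological replicates in each batch and 9 mice for the controls, but the labels do not say which library came from which mouse. Timp1, Cebpa, Cebpd, Gfi1, Spi1 and Cxcr2 were not analysed here.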

Additional observations from a re-analysis of the deposited data

Results flagged for a closer look

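Among 36 groups of libraries examined for single values far from the rest, 2 had one, and chance alone gives about 1 in 20. Lcn2 was at 5.78 CPM in GMP library 9 of control set A, while the nearest of the other 8 GMP libraries had 3.71 CPM and the median was 2.15 CPM. The gap was 0.495 of the range of the group. Mmp9 was at 6.09 CPM in library 10, an endosteal library of batch 19, while the nearest of the other 5 libraries of that batch had 3.33 CPM and the median was 2.92 CPM. This gap was 0.703 of the range. The causes of both were not tested.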

How the results depend on the processing

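No difference of a member changed sign where it was called. Some that were not called did, among them that of Camp between regions over all batches (0.38 by the main settings, -0.37 at the lowest). Against the GMPs, 404 of 405 values over 45 alternatives (pseudocount, filter, scaling, tool, left-out libraries, sets, batches and regions) kept their call, and the exception was Ltf at a pseudocount of 3 (0.87). Within single batches against the GMPs the calls that changed were Lcn2 of batch 3 with central libraries alone (0.94, lost), Mmp9 of batch 19 at a pseudocount of 3 (0.91, lost) and Ltf of batch 19 with voom and 7 GMP libraries (1.48, gained). Between batches 1 and 3 the number of members called was 0, but 1 with edgeR (1060 of all 4813 genes), 1 with DESeq2 (1149 of 4813) and 3 with central libraries alone (832 of 4560). When single libraries were left out it was 0 to 2 (1 without library 20, 2 without library 21), beside 596 to 840 genes. Between batches 1 and 19 it was 3, but 5 with edgeR (1501 of 4813 genes), DESeq2 (1532 of 4813), central libraries alone (910 of 4560) and, as an alternative chosen after seeing the data, without libraries 3 and 18 (934 of 4769). When single libraries were left out it was 3 to 5 (5 without library 18), beside 939 to 1184 genes. Between batches 3 and 19 it was 4 (614 of 4820 genes), and it fell to 1 with central libraries alone (591 of 4560). It was 6 with edgeR (927 of 4813 genes), DESeq2 (969 of 4813) and voom (896 of 4813). These tools were run without library 2, the lowest of batch 3 for S100a8, S100a9, Ngp and Camp. When single libraries were left out the number was 3 to 6, beside 588 to 623 genes. Over the alternatives 16 calls were gained and 11 lost, and Camp was not called in 8 of 32 alternatives (adjusted p from 0.000102 to 0.103 by the tool of each). For regions no member was called under any alternative over all batches or within batches 1 and 19, and within batch 3 the number was 0 to 1 (1 without library 18). The causes of these changes were not tested. TMM and quantile scaling moved the median of all genes in AML against GMPs from 0.33 to 0.19 and 0.18. Ltf, at a median of 0.291 CPM in GMPs, and Mmp9, at 0.093 CPM, rest on few reads there. No paired analysis was possible because the labels give the libraries no numbers that tie endosteal, central and GMP libraries to the same mice.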
